A study of Mus musculus with 12 samples.

Results

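The circadian clock genes examined here were Arntl, Clock and Npas2, Per1, Per2 and Per3, Cry1 and Cry2, Nr1d1 and Dbp, 10 of the 17550 genes named on the array. They were read from all main probesets carrying 1 of these gene symbols, 247 of 221417, a rule that uses the symbol and no measured value. The values came from the whole brains of 12 newborn female mice, 1 mouse per Affymetrix Mouse Exon 1.0 ST array. In each of 6 litters, 1 wildtype (KIS +/+) pup was paired with 1 KIS-ko (KIS -/-) littermate. KIS-ko mice are homozygous for a knockout of Uhmk1, which encodes the protein kinase KIS, and the line had been backcrossed to C57BL6/N. No mouse was treated. Animals were typed from tail tissue. The labels give the litter of every brain but not the time of day at which it was taken, so a litter could not be placed at a phase of the day, and time, dam and day of preparation cannot be told apart from the litter.

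In the mammalian clock, the proteins ARNTL (also called BMAL1) and CLOCK, or its relative NPAS2, bind as a pair to E-boxes and activate the Per and Cry genes. PER and CRY proteins then accumulate, enter the nucleus and repress that pair, which closes a loop of about a day. In a second loop, NR1D1 (REV-ERB alpha) is activated through E-boxes and represses Arntl through ROR elements, and DBP, a bZIP factor that is itself an output of the loop, activates genes that hold D-boxes. In adult rodents these transcripts cycle in the suprachiasmatic nucleus and in most other tissues, with Arntl peaking roughly opposite to Per2, Nr1d1 and Dbp, whereas around birth rhythms in the brain are known to be weak and to develop with age.

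Motifs of the kind through which these factors act were found by letter in the promoters of 6 members, and those stretches are shown because they hold the letters of these motifs. Of the 10 genes, 9 had an entry in the RefSeq promoter table (build GRCm38.p6), with 13 windows that ran from 250 bases before to 50 bases after an annotated start. Each line reads 5′ to 3′ in the direction of transcription, with the motif matches in capitals. The E-box CACGTG was found in Per1 at chr11:69098738-69098833 (plus strand) and in Cry1 at chr10:85185064-85185178 (minus strand), where it followed a copy of the variant CACGTT, written AACGTG on the strand shown.
Per1: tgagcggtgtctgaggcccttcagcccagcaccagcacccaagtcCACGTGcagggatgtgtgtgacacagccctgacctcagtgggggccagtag
Cry1: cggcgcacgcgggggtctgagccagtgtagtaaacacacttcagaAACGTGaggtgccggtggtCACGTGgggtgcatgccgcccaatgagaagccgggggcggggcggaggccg
The CACGTT variant also occurred in Cry2 at chr2:92434185-92434280 (minus strand) and in Nr1d1 at chr11:98775378-98775450 (minus strand).
Cry2: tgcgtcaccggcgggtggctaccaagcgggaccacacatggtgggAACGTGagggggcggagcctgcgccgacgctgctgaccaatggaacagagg
Nr1d1: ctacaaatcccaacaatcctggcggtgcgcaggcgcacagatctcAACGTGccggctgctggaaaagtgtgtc
Per3 held 2 copies of the D-box TTATGTAA at chr4:151044771-151044915 (minus strand), with first bases at -205 and -158 relative to its start.
Per3: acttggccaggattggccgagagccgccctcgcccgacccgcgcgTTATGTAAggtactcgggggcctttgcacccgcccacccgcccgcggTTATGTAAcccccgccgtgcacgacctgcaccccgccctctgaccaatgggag
Arntl held the ROR element TAGGTCA at chr7:113207530-113207558 (plus strand), with its first base at 30 relative to 1 of its annotated starts.
Arntl: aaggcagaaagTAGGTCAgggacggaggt
Both strands were searched. E-boxes were present in 7.15% of all 32851 windows of this length, CACGTT in 4.68%, D-boxes (TTATGTAA or TTACGTAA) in 1.06% and ROR elements (TAGGTCA or TGGGTCA) in 6.45%. These are matches of letters and not measured binding sites.

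Each gene value was the mean of log2(signal + 16) over the probesets of the gene, the signal being a PLIER estimate per probeset. Probesets that scattered widely among brains of a genotype (a ratio of SD to mean over 0.4) had been removed first, which left 241 of the 247 probesets, and all 10 genes. Between 1 and 25 probesets per member exceeded a signal of 713, the level below which 95% of the 5222 intron controls lay: 25 of 30 in Clock, 22 of 31 in Per1, 22 of 36 in Cry2, 14 of 34 in Per2, 14 of 26 in Npas2, 10 of 12 in Nr1d1, 9 of 21 in Arntl, 3 of 16 in Cry1, 2 of 9 in Dbp and 1 of 26 in Per3. In Arntl, Per2, Per3, Cry1 and Dbp most probesets were at or below that level. Uhmk1 followed the labels on every array, with gene values of 10.89 to 11.07 in wildtype and 8.62 to 8.98 in KIS-ko brains (difference -2.11, limma adjusted p = 2.91e-07). The median signal of an array ranged from 459.9 to 526, and the KIS-ko array of litter 5 was the dimmest. The suprachiasmatic nucleus, the pacemaker, is a small part of a whole brain, and of its 10 markers 2 exceeded the intron control level.

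The 3 Per genes encode the partners of CRY in the repressor complex. Per2 (chromosome 1, 93312560 to 93347402, in deposited positions whose genome build is not given in the sources used here) had values of 9.50, 9.55, 9.38, 9.17, 9.79 and 9.31 in the wildtype brains of litters 1 to 6, and of 9.20, 9.29, 9.64, 9.44, 9.60 and 9.18 in their KIS-ko littermates. The brains of litter 5 ranked 1 and 3 of 12, with the KIS-ko brain of litter 3 between them. The litter mean was 1.37-fold higher in litter 5 than in litter 6 (0.45 on the log2 scale), the widest span among the members. Per1 (chromosome 11, 68914011 to 68923156) had 10.34 and 10.33 in the wildtype and KIS-ko brains of litter 5, against 9.84 to 10.39 in the other 10 brains, of which the KIS-ko brain of litter 4 was highest. Its litter means spanned 0.41 on the log2 scale. Per3 (chromosome 4, 150380000 to 150418640) had 8.35 and 8.31 in litter 5 and 8.07 to 8.30 elsewhere, so that both brains of this litter lay above all others. The gap was 0.015, less than the mean difference between littermates (0.07), and 0.09 after centring of the arrays. In the 1 Per3 probeset above the intron control level, litter 2 was highest (0.21 above the mean of the litters) and litter 5 was at 0.03.

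The cryptochromes, the other partners in that complex, also had their highest values in litter 5. Cry1 (chromosome 10, 84594504 to 84647459) had 9.14 and 8.98 in litter 5 against 8.64 to 8.97 in the other 10 brains. Cry2 (chromosome 2, 92243879 to 92274118) had 10.05 and 9.996 against 9.59 to 9.99. In both genes litter 6 had the lowest litter mean, 0.14 below the mean of the 6 litters for Cry1 and 0.16 below it for Cry2. The lower brain of litter 5 exceeded the highest of the others by 0.0063 in Cry1 and 0.0023 in Cry2, less than the mean difference between littermates (0.14 in Cry1 and 0.13 in Cry2).

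Nr1d1 (chromosome 11, 98629477 to 98636062), the nuclear receptor that represses Arntl, had the widest gap between litter 5 and the other brains among the members as deposited, whereas after centring the gap was 0.17 in Cry2, 0.14 in Cry1 and 0.14 in Nr1d1. Its values were 10.31, 10.36, 10.16, 10.46, 10.56 and 10.20 in wildtype and 10.20, 10.14, 10.40, 10.39, 10.61 and 10.12 in KIS-ko brains of litters 1 to 6. Both brains of litter 5 lay above the highest of the other 10 (10.46), by at least 0.10, and both brains of litter 6 were near the bottom. The litter means differed by up to 0.43 on the log2 scale, or 1.35-fold. Dbp (chromosome 7, 52960656 to 52965473) did not share this order as deposited: the brains of litter 5 had 9.08 and 9.06, inside the range of 8.94 to 9.16 of the others, and litter 4 had the highest mean.

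The litter means of the activators spanned less than those of Per1, Per2, Cry1, Cry2 and Nr1d1. Those of Arntl (chromosome 7, 120378167 to 120457359) spanned 0.22, of Clock (chromosome 5, 76645726 to 76733562) 0.15 and of Npas2 (chromosome 1, 39251198 to 39418913) 0.15 on the log2 scale. Arntl had 9.52 in the wildtype brain of litter 5, the highest of the 12, and 9.44 in its littermate, within the 9.19 to 9.50 of the other 10. Clock had its highest litter mean in litter 3, and the highest single Npas2 value, 9.65, came from the wildtype brain of litter 6.

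**Figure D1:**
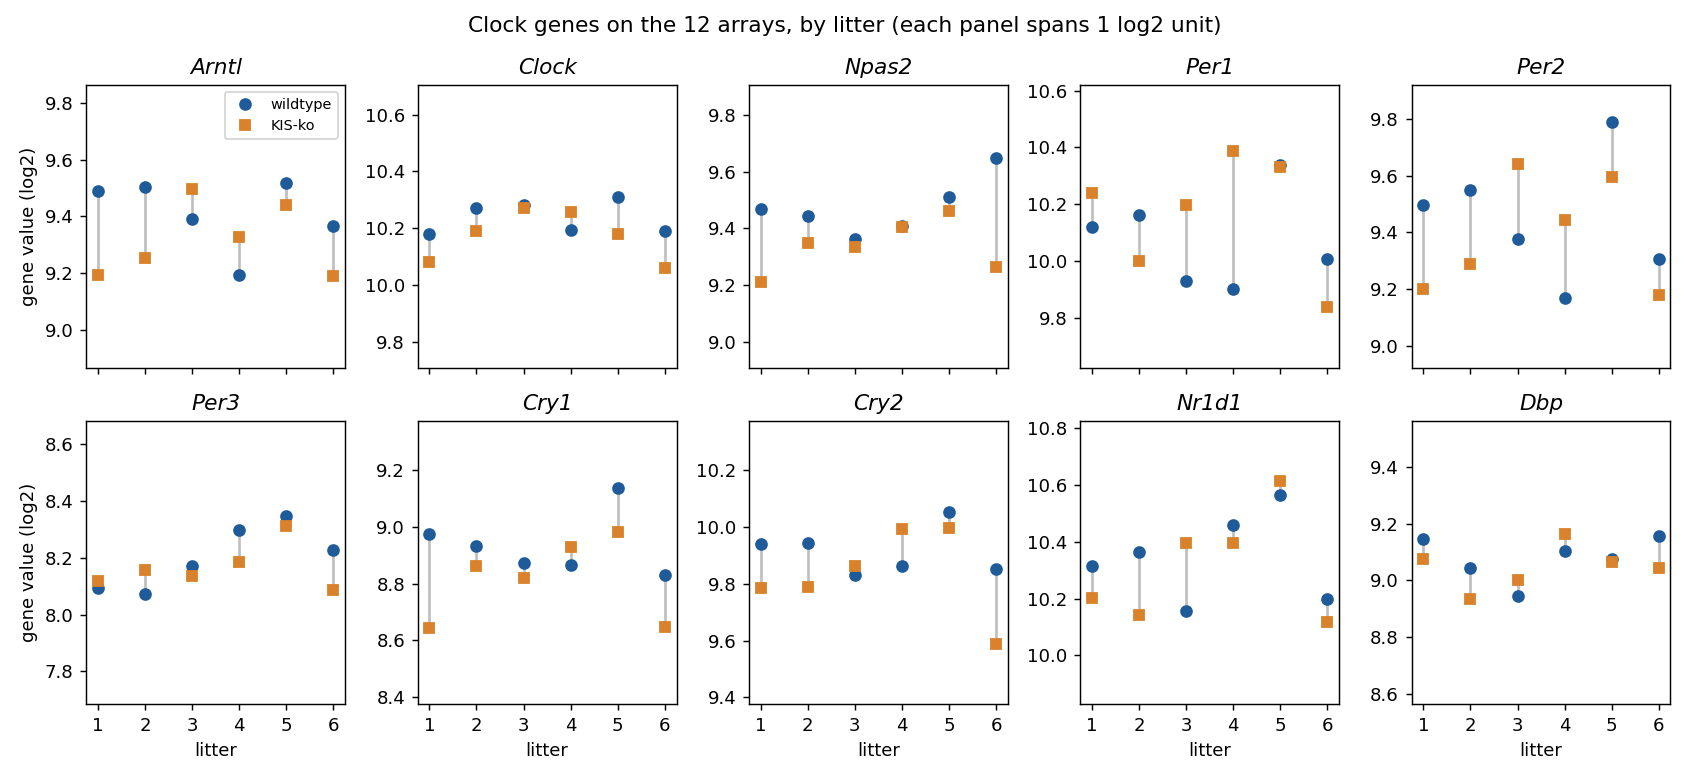
Gene values (mean over probesets of log2(signal + 16)) of the 10 clock genes, 1 panel per gene, against litter on the x axis. Circles are wildtype and squares KIS-ko brains, and a grey line joins littermates. Both brains of litter 5 were above the other 10 in Per3, Cry1, Cry2 and Nr1d1.

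Litter 5 thus had the highest mean in 8 of 10 clock genes, where 18.8% of all 17279 genes tested had it, and both of its brains lay above the other 10 in 4 of 10 (Per3, Cry1, Cry2 and Nr1d1) against 2.8% of all genes. Litter 6 had the lowest mean in 6 of 10, against 12.3% of all genes. The members' median deviation from the mean of the litters was 0.15 in litter 5 and -0.11 in litter 6, and over all genes these medians were -0.03 and 0.01. In litter 4, 8 members lay above their mean, where 51.6% of all genes did, with a median deviation of 0.02 over all 10 members. For litters 1, 2 and 3 the counts were 2, 3 and 3 members, against 67.6%, 44.9% and 48.8% of all genes. With centring, the count in litter 4 was 5 of 10 (39% of all genes), with a median deviation of 0.0006. The centred counts in litters 1, 2 and 3 were 1, 3 and 3 (42.2%, 44.6% and 51.3% of all genes).

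No single clock gene passed the limma F test of litter. After adjustment over all genes, 0 of 10 members and 0 of 17279 genes (0%) were called at 0.05. Without adjustment limma called 1 member, Nr1d1 (F = 4.15, adjusted p = 0.364), where 11.3% of all genes were called. The share of members was thus near the background. The next lowest values were those of Per2 and Cry1 (adjusted p = 0.569 for each). With probesets no brighter than the intron controls left out, Cry1 alone among the members passed (adjusted p = 0.0454), as did 2.46% of the 11425 genes then tested, and 2 of 10 had an unadjusted p under 0.05 (18.5% of those genes). The Cry1 value then rested on 3 of its 16 probesets, at 0, 201 and 38086 bases from its first listed base. The probeset at 201 bases is not marked as matching a single place. Centring each array on its median gave other counts. After it, litter 5 had the highest mean in 10 of 10 members (43.5% of all genes), both of its brains lay above the other 10 in 8 of 10 (12.4% of all genes), and 7 of 10 had an unadjusted p under 0.05 (14.5% of all genes): Cry2, Nr1d1, Cry1, Per2, Clock, Per1 and Arntl. Here, too, the limma test called 0 members and 0% of genes after adjustment, with a lowest adjusted p among members of 0.205 in Cry2. After renewed quantile normalization 6 of 10 did (15.1%), and both brains of litter 5 were above the other 10 in 7 of 10 (10%). Without litter 5, the test called 0 members at an unadjusted p of 0.05, against 3.91% of all genes.

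**Figure D2:**
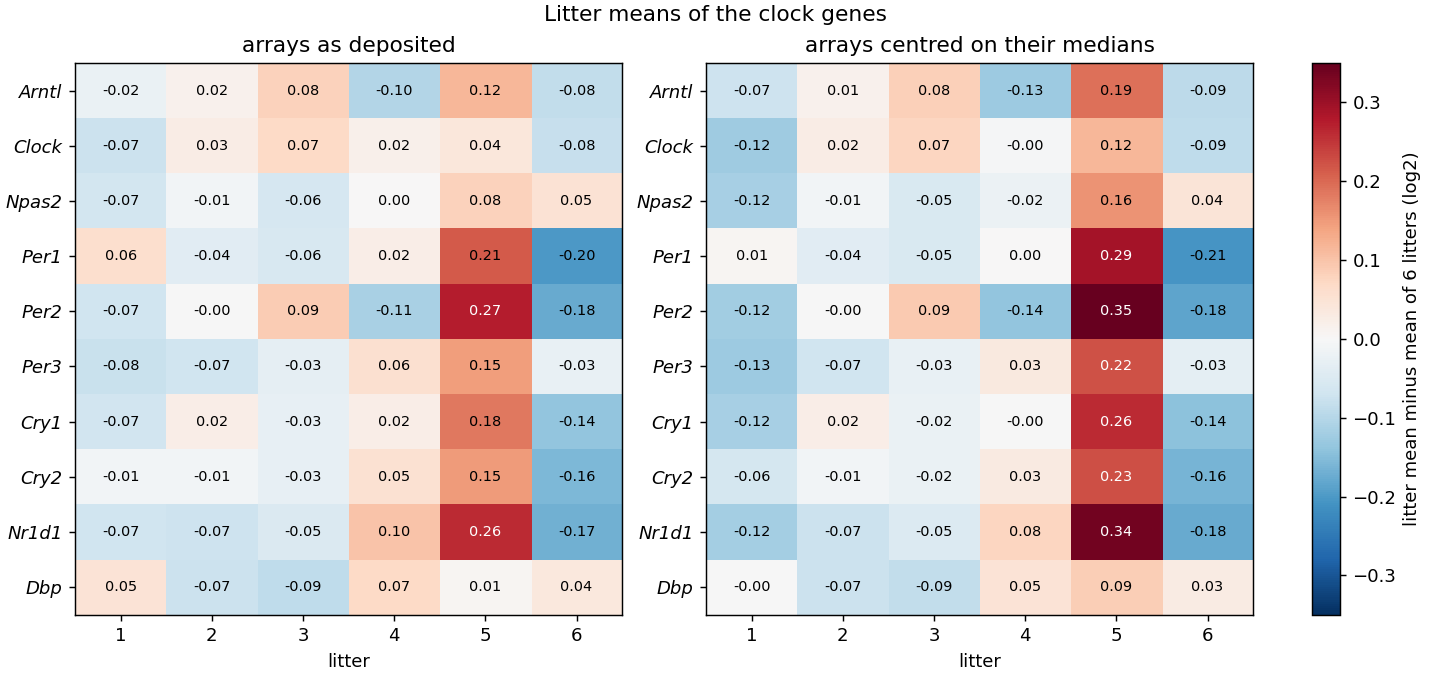
Litter means of the 10 clock genes as differences from the mean of the 6 litters (log2; colour scale and printed values), with genes as rows and litters as columns, for arrays as deposited (left) and centred on their medians (right). Litter 5 was above the mean in all 10 genes on either scale, and after centring it was the highest litter in each.

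Other signals also differed between litter 5 and the rest. The summed level of the 8 measured of 9 glucocorticoid-induced genes was 18560 in litter 5 and 15293 to 17006 in the other litters, although 3 of the 8 genes had their highest mean there (median deviation 0.05), or 6 of 8 after centring (median 0.13, with 43.5% of all genes highest), and the sums ranged from 13952 to 19124 in wildtype and from 14935 to 17996 in KIS-ko brains. The sum over 10 of 11 immediate early genes, 6506, lay within the 6153 to 7171 of the others, with 4 of the 10 highest and 1 lowest in litter 5 and a median deviation of 0.03 (0.11 after centring). The 10 markers of the suprachiasmatic nucleus summed to 5192 in litter 5 and to 5296 to 5707 elsewhere, with 6 of the 10 lowest and 1 highest in litter 5, and their median deviation there was -0.07 as deposited and 0.01 after centring. The sums of the astrocyte (20465 against 21190 to 22594, 5 of 5 genes measured), endothelial (6797 against 6979 to 8180, 5 of 5) and microglial markers (1461 against 1478 to 1689, 4 of 4) were below those of the other litters, with 3, 3 and 2 of these genes lowest in litter 5 and none highest. Their median deviations were -0.10, -0.12 and -0.09 as deposited and -0.02, -0.04 and -0.01 after centring. The neuronal sum was also below (34598 against 35094 to 35724, 4 of 6), although 1 of the 4 genes was lowest and 1 highest there, and their median deviation was 0.01 as deposited and 0.08 after centring. The choroid plexus sum was just above (13615 against 13215 to 13577, 7 of 8), although 3 of the 7 genes were lowest and 1 highest, with a median deviation of -0.02. Meningeal (9460 against 9360 to 9747, 8 of 8) and erythroid sums (18071 against 16804 to 20040, 6 of 7) were within the range. So was that of the oligodendrocyte lineage (4913 against 4732 to 5219, 4 of 4), although 2 of its 4 genes were highest and 1 lowest in litter 5, and their median deviation was 0.09 (0.17 after centring). Without adjustment, the limma test of litter called 2 of 4 oligodendrocyte lineage, 1 of 5 endothelial, 1 of 4 neuronal, 2 of 10 immediate early and 1 of 8 glucocorticoid-induced genes and none in the other 6 marker lists, against 11.3% of all genes. No marker was at 0. The part of these signals in the clock genes' values was not tested, and in whole brains fewer cells of a type and less RNA per cell cannot be told apart.

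The probesets of a gene showed how evenly its transcript followed the litter order. Of the 241 member probesets, 139 (57.7%) had their highest litter mean in litter 5, where 15.6% of all 205469 probesets had it. They included 29 of 34 in Per2, 24 of 31 in Per1, 13 of 16 in Cry1, 23 of 36 in Cry2 and 14 of 26 in Per3, but 4 of 30 in Clock and 3 of 9 in Dbp. Probesets of a gene measure the same RNA and are not replicates, and the 36 probesets of Cry2 lie in 2 transcript clusters of the same exons, none of them marked as matching a single place. In the limma test of litter, 0 of 241 probesets (0% of all) passed the adjusted threshold, and 15 had an unadjusted p under 0.05, among them 3 neighbours at the 5′ end of Cry1 (deviations of litter 5 of 0.32 to 0.38), where 9.8% of all probesets did.

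Strand set the probesets of Nr1d1 apart. All 10 probesets on the minus strand, from which Nr1d1 is transcribed, were highest in litter 5, by 0.21 to 0.47 above the mean of the litters (median 0.30). The 2 probesets on the plus strand, which share the symbol but lie in the transcript cluster of Thra, the thyroid hormone receptor gene that overlaps Nr1d1 tail to tail, were at -0.03 and -0.01. With the minus strand probesets alone, Nr1d1 had F = 4.68 and an adjusted p of 0.326 in the limma test of litter. The 5′ probeset of Nr1d1 had both the highest contrast of litter 5 to litter 6 (0.43 and -0.33) and a signal of 1511.

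**Figure D3:**
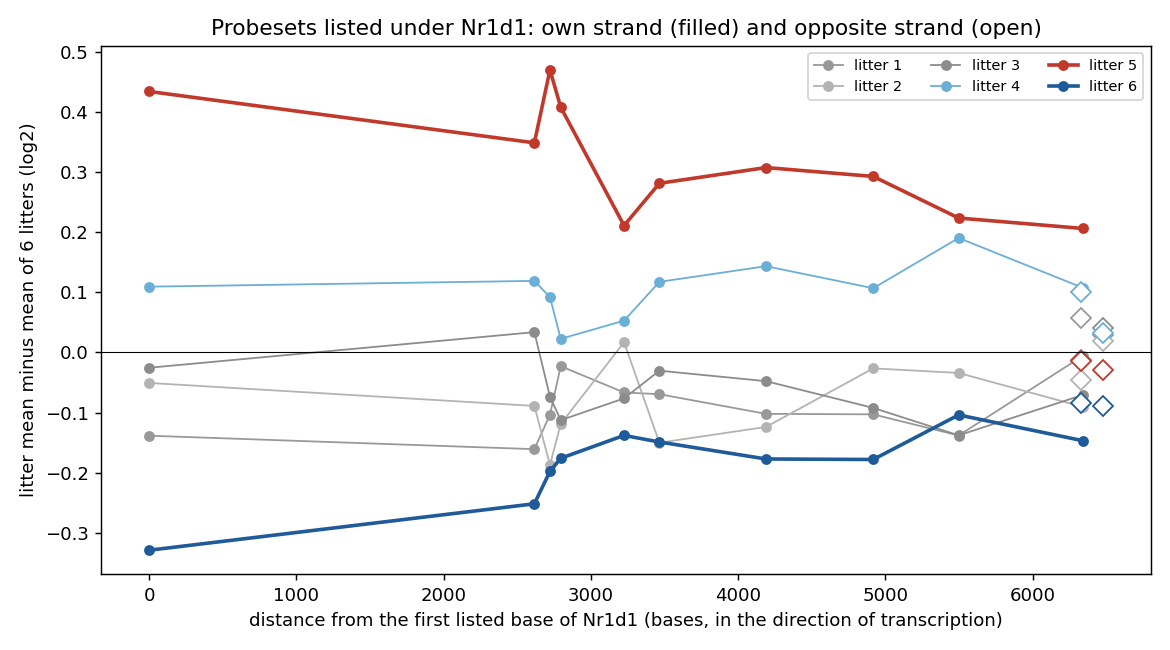
Litter deviations (log2, litter mean minus mean of the 6 litters) of the 12 probesets listed under Nr1d1 against distance from its first listed base in bases. Filled points joined by lines are the 10 probesets on the Nr1d1 strand and open diamonds the 2 on the opposite strand. Litter 5 was above every other litter at all 10 of the former and at neither of the latter.

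As deposited, littermates were more alike in some clock genes than in others. The intraclass correlation of littermates after removal of the genotype means is 1 where the brains of each litter are equal, and about 0 where they are no more alike than brains of different litters. It was 0.61 in Per3, 0.58 in Nr1d1, 0.48 in Dbp, 0.45 in Clock, 0.45 in Cry1, 0.33 in Cry2, 0.22 in Per2, 0.07 in Per1, -0.03 in Arntl and -0.26 in Npas2. The median of the members was 0.39, and that of all genes 0.09. After centring of the arrays these medians were 0.66 and 0.21, and the values of the 10 members lay closer together, from 0.50 in Per3 to 0.89 in Cry2, with 0.60 in Arntl, 0.52 in Npas2 and 0.55 in Per1. In Dbp, littermates differed by 0.07 on the log2 scale on average and the litter means by at most 0.16, whereas in Per2 littermates differed by 0.24 on average, against a span of 0.45 between litters.

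As Arntl peaks away from Per2 and Dbp in tissues where the clock cycles, its litter means were set against those of the 9 other members. Arntl and Per2 varied together over the 6 litters (r = 0.943, exact permutation p = 0.00278, adjusted over the 9 relations computed 0.025; Spearman rho = 0.943, exact permutation p = 0.0167, adjusted 0.15). Without litters 4 and 5, the ones farthest from the median of Arntl, r was 0.998. None of the other 8 relations had an exact permutation p under 0.05 as deposited. Their r ranged from -0.65 for Dbp (rho = -0.77, exact permutation p = 0.179 for r) to 0.63 for Cry1, with 0.63 for Clock, 0.54 for Per1, 0.52 for Cry2, 0.45 for Nr1d1, 0.31 for Per3 and 0.06 for Npas2. The value for Dbp moved to -0.19 without the filter on scatter, to -0.25 with medians over probesets and to -0.01 after centring. After centring, r was 0.98 for Per2, 0.83 for Clock (exact permutation p = 0.0486, adjusted 0.15), 0.80 for Cry1 (exact permutation p = 0.05, adjusted 0.15), 0.73 for Cry2, 0.70 for Per1, 0.67 for Nr1d1, 0.65 for Per3 and 0.58 for Npas2. Litters 3 and 5 were then the farthest from the median of Arntl. Without them, centred r was 0.88 for Per2, 0.38 for Clock, 0.38 for Cry1, 0.10 for Cry2 and 0.07 for Per1. It was -0.01 for Npas2, -0.32 for Nr1d1, -0.53 for Per3 and -0.99 for Dbp.

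Arntl and Per2 also varied together between littermates. In litters 1 and 2 the KIS-ko brain was lower than its littermate in both genes (-0.30 and -0.25 in Arntl, -0.30 and -0.26 in Per2), and in litters 3 and 4 it was higher in both (0.11 and 0.13 in Arntl, 0.27 and 0.28 in Per2). Over the 6 differences r was 0.950 (exact permutation p = 0.00972, adjusted over 9 relations 0.0875; rho = 0.943), and 0.679 without litters 3 and 4. Of the 8 other relations between littermates, those with Dbp (r = 0.922, exact permutation p = 0.0208, adjusted 0.0938) and Cry2 (r = 0.867, exact permutation p = 0.0333, adjusted 0.1) had an unadjusted p under 0.05, the one with Dbp being opposite in sign to that over litter means. After centring, r was 0.917 for Per2, 0.42 for Dbp and 0.70 for Cry2. This second set of relations was added after the data had been seen. The relation over litter means did not pass its adjusted threshold when probesets no brighter than the intron controls were left out (r = 0.884, adjusted p = 0.113), when medians over probesets were used (r = 0.836, adjusted p = 0.231) or with any 1 litter left out (r = 0.926 to 0.971, adjusted p = 0.15 to 0.225), when even the smallest exact p of 5 litters would not have passed on its own.

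**Figure D4:**
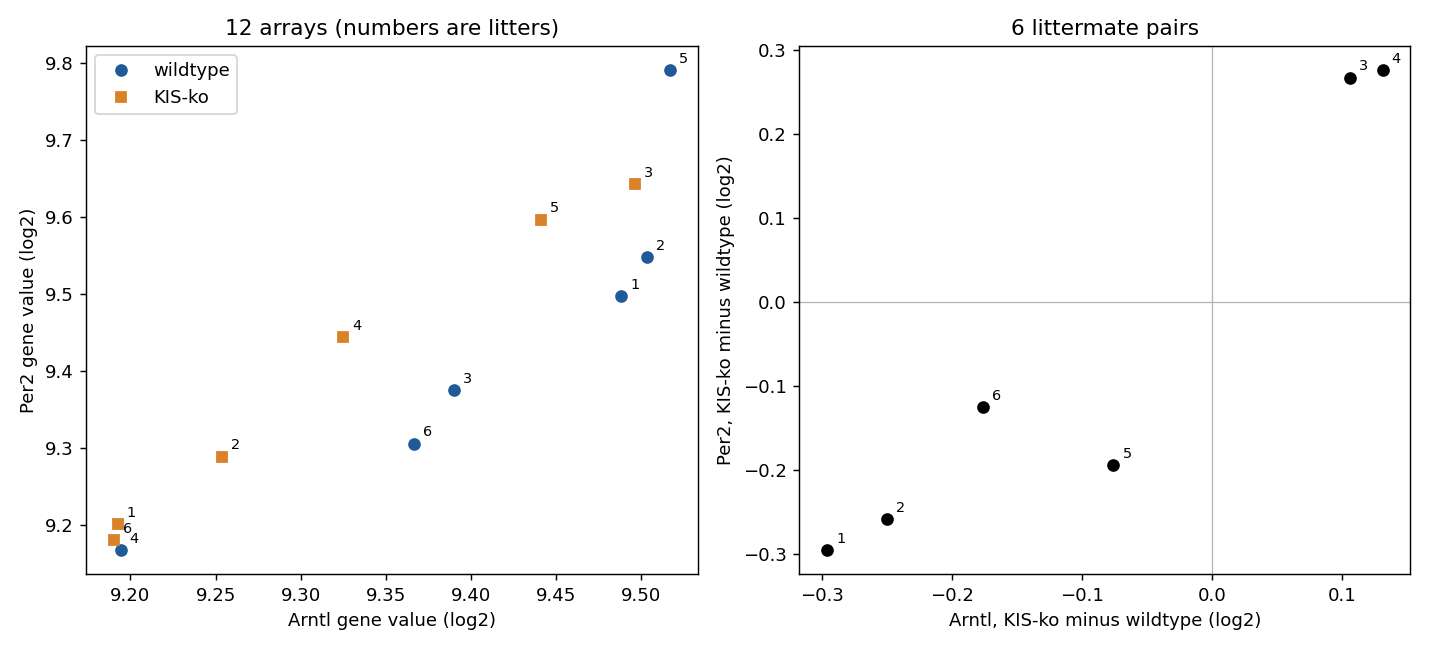
Left, Per2 against Arntl gene values (log2) in the 12 brains, with circles for wildtype, squares for KIS-ko and the litter beside each point. Right, the differences KIS-ko minus wildtype (log2) of the same genes in the 6 littermate pairs, with r = 0.950.

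Over the 12 centred arrays, Per2 was also the closest to Arntl of all genes compared (r = 0.952). A set of 7248 genes, 7 members included, had signals above the intron controls. Those outside the members most like Arntl were Dcp1a (r = 0.949), which encodes an mRNA decapping factor, and Acsl1 (0.936), an acyl-CoA synthetase gene. Sema4d (0.914), a semaphorin gene, Ssfa2 (0.908) and Tbcel (0.908) came next. The genes most like Dbp were Fam53c (0.921), Fam134c (0.917), Fgfrl1 (0.916), Diras2 (0.915) and Mex3d (0.868), and among members Nr1d1 (0.61) and Per3 (0.60) came closest to it. These are descriptions over the same 12 arrays, chosen from many genes as the highest values.

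Between littermates of the genotypes, the clock genes differed little. Npas2, the neuronal relative of Clock, had 9.36, 9.46 and 9.65 as its lowest, median and highest wildtype value and 9.21, 9.34 and 9.46 in KIS-ko brains, and as deposited it was lower in the KIS-ko brain in 6 of 6 litters. The ranges overlapped. After centring it was lower in 5 of 6 litters, with a difference of 0.04 in litter 2, and after renewed quantile normalization also in 5 of 6. As deposited, its mean difference was -0.14 ± 0.06 on the log2 scale (SE; 95% interval -0.27 to -0.0026), with an adjusted p of 0.685 in limma (0.0465 before adjustment), and an exact sign-flip permutation p of 0.03125, the smallest that 6 pairs allow. Litters 1 and 6 gave differences of -0.26 and -0.39, and litter 4 gave -0.0040. Of its 26 probesets, 24 were lower in KIS-ko brains, where 66.2% of all probesets were. In limma 6 of the 26 had an unadjusted p under 0.05 (6.63% of all) and none an adjusted one.

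The other 9 members had unadjusted limma p values of 0.057 or above. Cry1 was lower in the KIS-ko brain in 5 of 6 litters (8.94 ± 0.11 in wildtype and 8.81 ± 0.14 in KIS-ko, SD, n = 6 each, difference -0.12 with a 95% interval of -0.25 to 0.0044, limma adjusted p = 0.685). Clock was lower in 5 of 6 litters too, by 0.06 on average (interval -0.17 to 0.04), but in 3 of 6 after centring, with a mean difference of -0.0081. The means of Arntl (-0.09), Cry2 (-0.08), Per2 (-0.06), Per3 (-0.03), Nr1d1 (-0.03) and Dbp (-0.03) were lower in 4 of 6 litters. Per1 was the exception with a mean difference of 0.09 (interval -0.10 to 0.28) and was higher in 3 of 6 litters, by 0.49 in litter 4. The 95% intervals of the 10 differences ran from -0.27 to 0.28 on the log2 scale, and larger mean differences lay outside them.

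Limma called 0 of 10 members for genotype at an adjusted p of 0.05, where 0.00579% of all genes were called (1 gene, Uhmk1), and 1 of 10 at an unadjusted p of 0.05, where 6.16% were. With probesets no brighter than the intron controls left out, these counts were 0 and 2 of 10, against 0.0438% and 5.64% of the genes tested. As deposited, 9 of 10 members were lower on average in KIS-ko brains (median -0.06), and so were 69.8% of all genes (median -0.04). After centring of the arrays 5 of 10 were lower, against 37.8% of all genes. Directions by litter are given with those of all genes on the same arrays. The KIS-ko brain was lower in 8 members in litter 1, in 9 in litters 2 and 5 and in all 10 in litter 6, where 64.7%, 69.1%, 66.1% and 70.4% of all genes were lower. It was lower in 4 members in litter 3 and in 3 members in litter 4, where 49% and 30.3% of all genes were. After centring these counts were 7, 5, 3, 6, 7 and 5 of 10 in litters 1 to 6, against 41.7%, 37%, 40.5%, 57.4%, 55.3% and 37.4% of all genes. The genotype difference of Npas2 after centring was -0.08, and that of Per1 was 0.15. After centring and after renewed quantile normalization, 0 of 10 members had an unadjusted genotype p under 0.05, where 6.35% and 7.09% of all genes did. Of the 241 member probesets, 0 passed the adjusted threshold for genotype (0.00487% of all) and 17 had an unadjusted p under 0.05 (6.63% of all).

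**Figure D5:**
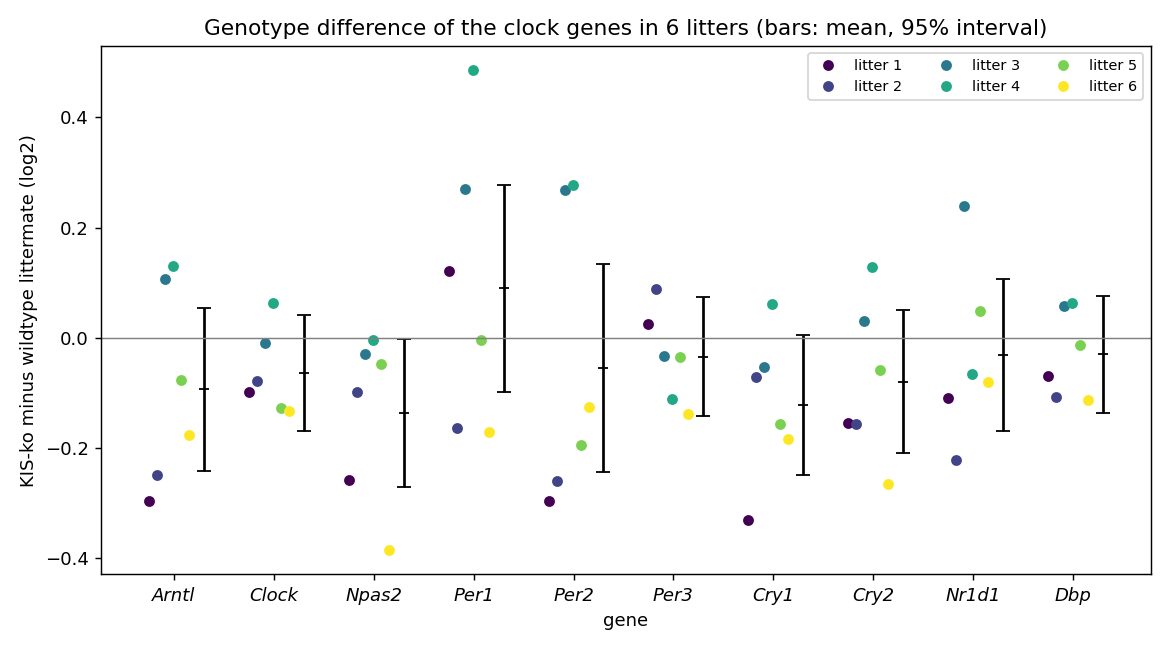
Differences KIS-ko minus wildtype littermate (log2) of the 10 clock genes, 1 coloured point per litter, with the mean and its 95% interval in limma as black bars. On these arrays as deposited, Npas2 was lower in all 6 litters (5 of 6 after centring) and its interval alone lay below 0, ending at -0.0026.

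Of 24 further clock genes, listed for their role in the loop and its output, 23 were measured. The limma test of litter called 0 of 23 after adjustment and 2 without it (11.3% of all genes), Tef and Fbxl21. After centring it called 0 after adjustment and 4 of 23 without it (14.5% of all genes), Nr1d2 and Hlf being the other two. Tef, like Dbp a bZIP activator at D-boxes, had 9.46 and 9.45 in litter 5 and 9.03 to 9.26 in the other 10 brains (adjusted p = 0.259), and its littermates had an intraclass correlation of 0.89. Fbxl21, which encodes an F-box protein that acts on CRY, went the other way, with 7.71 and 7.62 in litter 5 and 8.14 to 8.87 elsewhere (adjusted p = 0.171). Both brains of litter 5 were also above the others in Nr1d2, the paralog of Nr1d1 (9.35 and 9.28 against 8.82 to 9.24), and in Hlf, another D-box activator of this family (9.92 and 9.83 against 9.52 to 9.79). Hlf is named after its values were seen. With Tef, 3 of 23 genes had this order, against 2.8% of all genes. After centring 7 of 23 had it (12.4% of all genes), and after renewed quantile normalization 7 of 23 (10%).

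Nfil3, a repressor at the same D-boxes, had its lowest mean in litter 5 (8.74 and 8.77 against 8.76 to 9.15 in the other brains). Arntl2, the paralog of Arntl, was lowest in litter 5 as well (7.83 and 7.86 against 7.93 to 8.19). After centring the lowest mean was that of litter 3 in Nfil3 and that of litter 1 in Arntl2. On either scale litter 5 had the lowest mean of Btrc, which encodes a ubiquitin ligase subunit acting on PER (10.51 and 10.43 against 10.55 to 10.83). Usp2, a deubiquitinase gene, and Timeless had litter means that spanned 0.19 and 0.20. None of these 5 genes had an unadjusted litter p under 0.05 in limma. For genotype, limma called 0 of the 23 after adjustment and 2 without it, Bhlhe41 (-0.18) and Nampt (-0.13), each with an adjusted p of 0.685, against 6.16% of all genes. After centring the count without adjustment was again 2 of 23 (6.35% of all genes), Bhlhe41 (-0.13) and Usp2 (0.07), with Nampt at -0.08 and no longer among them. Bhlhe41 and Nampt are named after their values were seen. Of the 23, 18 were lower in KIS-ko brains as deposited (69.8% of all genes) and 13 after centring (37.8% of all genes).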

How the data were processed

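Whole-brain RNA of 12 newborn mice was hybridised to Affymetrix Mouse Exon 1.0 ST arrays. The authors quantile-normalized the arrays and deposited 1 intensity per probeset, estimated with PLIER in Affymetrix Expression Console, for 229581 probesets. The table has no column of authors' comparisons and no array columns other than those of the 12 samples. Arrays carry no read depth, and their number limits the precision.

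Groups and litters were taken from the labels, which pair the samples (deviations of littermates correlated at -0.114 to 0.473, mean 0.10, and those of different litters at -0.425 to 0.282, mean -0.02). Main probesets with a gene symbol (221417) were filtered as in the study's methods, which rejected 15948 (7.2%) whose ratio of SD to mean was over 0.4 in a genotype, and were averaged per gene (17279 genes) on the log2(signal + 16) scale. limma 3.58.1 in R 4.3.3 fitted genotype with litter as a block, and the 5 litter coefficients were tested together. P values were adjusted over all genes or all probesets (Benjamini-Hochberg). Single differences and correlations used exact two-sided permutations computed with NumPy 2.4.6, with ranks from SciPy 1.17.1. The code was tested on simulated data. Of the intensity alternatives, other pseudocounts (1 and 64), no filter, dim probesets left out, centred or again quantile-normalized arrays, medians, probesets matching 1 place, moderation with trend, each litter left out and no block were tried. The transcript cluster setting and the correlations between littermates were added after the data were seen.

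The members and all lists were chosen with earlier results of these data known. Named beside the members were 8 further clock genes with the largest share of the sum of squares between litters, and the 5 genes most like Arntl and most like Dbp. Motifs were searched in RefSeq promoter windows (GRCm38.p6). The deposited positions carry no build and were not converted. Per2 had no window.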

Additional observations from a re-analysis of the deposited data

How the results depend on the processing

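Of 159 litter tests of single members recomputed under other settings, 158 stayed on the same side of the adjusted threshold. The exception was Cry1 with dim probesets left out (limma F = 9.84, adjusted p = 0.0454), when it rested on 3 of its 16 probesets. This made 1 member called for litter in place of 0, against 2.46% of the 11425 genes then tested. Of 169 genotype differences, 10 changed sign, with adjusted p values of 0.819 or above. After centring these were Per2 (0.00064), Per3 (0.0214), Nr1d1 (0.0246) and Dbp (0.0255), so that 5 and not 9 members were lower in KIS-ko brains. After renewed quantile normalization they were Per3 (0.0119), Nr1d1 (0.0109) and Dbp (0.0199), with medians over probesets Nr1d1 (0.0145) and Dbp (0.00071), and without litter 2 Nr1d1 (0.0068, in a range of -0.0852 to 0.0068 with 1 litter left out). The number of members with an unadjusted litter p under 0.05 was 1 as reported (11.3% of all genes). It was 2 with dim probesets left out (18.5% of the genes tested), 7 after centring (14.5%) and 6 after renewed quantile normalization (15.1%). With 1 litter left out it was 0 to 3, namely 0 without litter 5 (3.91%), 0 without litter 6 and 3 without litter 4. For genotype the number with an unadjusted p under 0.05 was 1 as reported (6.16% of all genes). It was 0 with a pseudocount of 1, with medians and in a paired t-test (751 of all genes). After centring (6.35%) and after renewed quantile normalization (7.09%) it was also 0. It was 2 with a pseudocount of 64, 2 with dim probesets left out (5.64% of the genes tested) and 0 to 2 with 1 litter left out. Counts given here without a share of all genes cannot be set against the background. Moderation with trend called 1 member probeset for litter in place of 0, the 5′ probeset of Nr1d1 (adjusted p = 0.0475), among 2421 of all probesets. The number of Arntl relations past the adjusted threshold fell from 1 to 0 with dim probesets left out, with medians and with any 1 litter left out. The relation of Arntl and Npas2 turned negative with dim probesets left out (-0.14), with medians (-0.25), with probesets matching 1 place (-0.0015), without litter 1 (-0.01) and without litter 5 (-0.68), and without litter 5 those of Arntl with Per3 (-0.55) and Nr1d1 (-0.20) were negative too. With 1 litter left out, r ranged from -0.68 to 0.36 for Npas2, from -0.55 to 0.64 for Per3 and from -0.20 to 0.82 for Nr1d1. Without the replicate block, 0 members had an adjusted p under 0.05 for genotype, 1 had an unadjusted one and 9 were lower, as with it. Cry2 could not be fitted with probesets matching 1 place only. The causes were not tested. As to signal over background, 119 of the 241 member probesets were no brighter than the 95th percentile of the intron controls.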
